A study of Homo sapiens with 30 samples.

Results

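The zinc finger genes of the chromosome 19p12 and 19p13.11 cluster were followed in OPM2 and Delta47, cell lines from human multiple myeloma, after editing of FOXM1, a gene of a forkhead transcription factor. The set holds 31 KRAB zinc finger genes, all of them present among the 16407 genes of the OPM2 table and the 17286 genes of the Delta47 table. It was chosen because ZNF100, ZNF257 and ZNF43 were higher than in WT in all knockout clones of both lines. Those knockout against WT values therefore selected the genes, and they are given here as a description without a test. Values are given for genes with a mean of 0.5 or more in at least 1 group, which were 26 of 31 in OPM2 and 27 of 31 in Delta47.

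KRAB zinc finger proteins bind DNA through tandem zinc fingers and recruit the corepressor TRIM28 through their KRAB domain. TRIM28 in turn brings the histone methyltransferase SETDB1 and heterochromatin proteins, and many of the targets of these complexes are retroelements. The genes arose by repeated duplication and sit in clusters, several of them on chromosome 19, where the 3' zinc finger exons of the genes themselves carry heterochromatin marks in many cell types. FOXM1 is a forkhead factor known for activating genes of the late cell cycle.

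The groups analysed had 3 libraries each. In OPM2 they were KO1R, a FOXM1 knockout clone carrying a lentiviral FOXM1c vector, KO1EV, the same clone with the empty vector, the untransduced clones KO1 and KO2, and unedited WT cells. In Delta47 they were KO2R, clone KO2 with the FOXM1c vector, the untransduced clones KO1 and KO2, and WT cells. Both lines are plasma cell tumour lines, the edit was aimed at exon 2 of FOXM1 with Cas9 protein and guide RNA, and cells that received the FOXM1c vector were sorted for GFP. Each knockout is 1 clone, so a difference from WT can belong to the clone and cannot be told apart from one that belongs to the edit. A Delta47 empty-vector group was not analysed here, so in that line the vector, the sort and FOXM1c cannot be told apart.

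FOXM1 itself had 262.89, 278.01 and 291.72 FPKM in OPM2 KO1R and 105.86, 105.33 and 108.77 FPKM in KO1EV. It had 91.24, 93.28 and 91.67 FPKM in KO1 and 57.11, 59.55 and 69.73 FPKM in KO2, against 175.26, 175.63 and 176.80 FPKM in WT. In Delta47 its expression value was 94.37, 102.44 and 101.29 in KO2R, 46.09, 49.78 and 47.97 in KO1 and 47.11, 46.10 and 45.35 in KO2, against 87.10, 88.81 and 90.85 in WT. The transcript was thus lower in every knockout library than in every WT library (log2 difference −0.93 ± 0.07 and −1.49 ± 0.07 in OPM2 KO1 and KO2, −0.88 ± 0.04 and −0.93 ± 0.04 in Delta47 KO1 and KO2, ± SE; limma, Benjamini-Hochberg adjusted p = 1.09e-06, 1.28e-08, 4.19e-11 and 1.3e-11). It was higher in both FOXM1c groups than in the cells they came from. A gene total does not show the exon that was edited, so these levels check the labels only in part.

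The values were FPKM in OPM2, and in Delta47 a normalised expression value whose unit the table does not name. Column totals were 510776 to 566016 in OPM2 and 534185 to 633778 in Delta47, and the depth of the libraries is unknown because no counts were used. All 10 plasma cell genes of a marker list were at a mean of 1 or more over all libraries of each line. Their values summed to 4602.9 to 4618.6 in Delta47 KO2R, 4695.8 to 4779.7 in KO1 and 3472.7 to 3512.1 in KO2, against 4814.8 to 4936.6 in WT. Of 3 B cell markers in the tables, PAX5 was below 0.5 in every group of both lines, and 1 reached a mean of 1 over all Delta47 libraries. In Delta47 the list summed to 2.11 to 2.65 in KO2R and 2.13 to 2.46 in KO1. In KO2 it summed to 2.58 to 2.92, against 2.39 to 2.55 in WT. A list of 5 stromal and endothelial markers summed to 13.57 to 15.08 in Delta47 KO2R and 3.22 to 3.57 in KO1. In KO2 it summed to 14.38 to 16.2, against 1.69 to 1.75 in WT. COL1A1, COL1A2, COL3A1 and PDGFRB were under 0.5 in every group. The remaining marker, PECAM1, was the only 1 of the list to reach a mean of 1 over all Delta47 libraries. Of a list of 5 epithelial markers, 3 reached a mean of 1 over all Delta47 libraries. The list summed to 12.01 to 12.87 in Delta47 KO2R and 7.94 to 8.55 in KO1. In KO2 it summed to 9.59 to 11.2, against 5.49 to 6.47 in WT. The part of these lists in the results was not tested. OPM2 KO2 replicate 3 and KO1EV replicate 3 stood apart from the rest. In bulk samples, fewer cells of a type and less RNA per cell cannot be told apart. The genes are close paralogs, so reads may have been split between copies or assigned to the wrong one, and neither the counting tool nor the use of strand is given in the sources used here.

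The most extended difference lay in Delta47, where an unbroken run of zinc finger genes was near 0 in WT cells. All of them but ZNF99 had higher means in both knockout clones. Not all reached the limit of 0.5: ZNF429, ZNF98, ZNF492 and ZNF726 were among those that stayed under it in KO2. The 12 members from ZNF429 to ZNF726 in chromosome order each had a mean of at most 0.253 in WT. Their means summed to 26.4 in KO2R, 30.9 in KO1 and 26.0 in KO2, against 0.89 in WT. The 19 members outside this stretch summed to 97.4 in KO2R, 92.9 in KO1 and 103 in KO2, against 80.7 in WT. The limits of the stretch were set after its values were seen, so no test was made of it.

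ZNF100, which lies near the start of the stretch, had expression values of 6.74, 5.65 and 6.68 in Delta47 KO1 and 6.26, 6.68 and 6.54 in KO2, against 0.16, 0.20 and 0.05 in WT. Its neighbour ZNF43 had values of 3.46, 3.77 and 3.63 in KO1 and 4.58, 4.80 and 4.78 in KO2, against 0.06, 0.05 and 0.04 in WT. Every knockout library lay above every WT library for both genes. ZNF257 had values of 8.55, 7.84 and 8.46 in KO1 and 5.30, 6.07 and 5.69 in KO2, against 0.06, 0 and 0.02 in WT. ZNF208, which stands between ZNF43 and ZNF257, had values of 4.79, 4.51 and 4.55 in KO1 and 4.19, 4.04 and 4.30 in KO2, while WT was listed at 0 in 2 libraries and at 0.01 in the other. The log2 differences of value + 1, a scale that understates changes of genes near 0, were 2.69 ± 0.08 in KO1 and 2.72 ± 0.08 in KO2 for ZNF100, and 2.14 ± 0.07 and 2.45 ± 0.07 for ZNF43. They were 3.18 ± 0.07 in KO1 and 2.70 ± 0.07 in KO2 for ZNF257, and 2.48 ± 0.08 and 2.37 ± 0.08 for ZNF208 (± SE). With a pseudocount of 0.1 in place of 1 the 8 differences lay between 4.63 and 6.07.

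**Figure D1:**
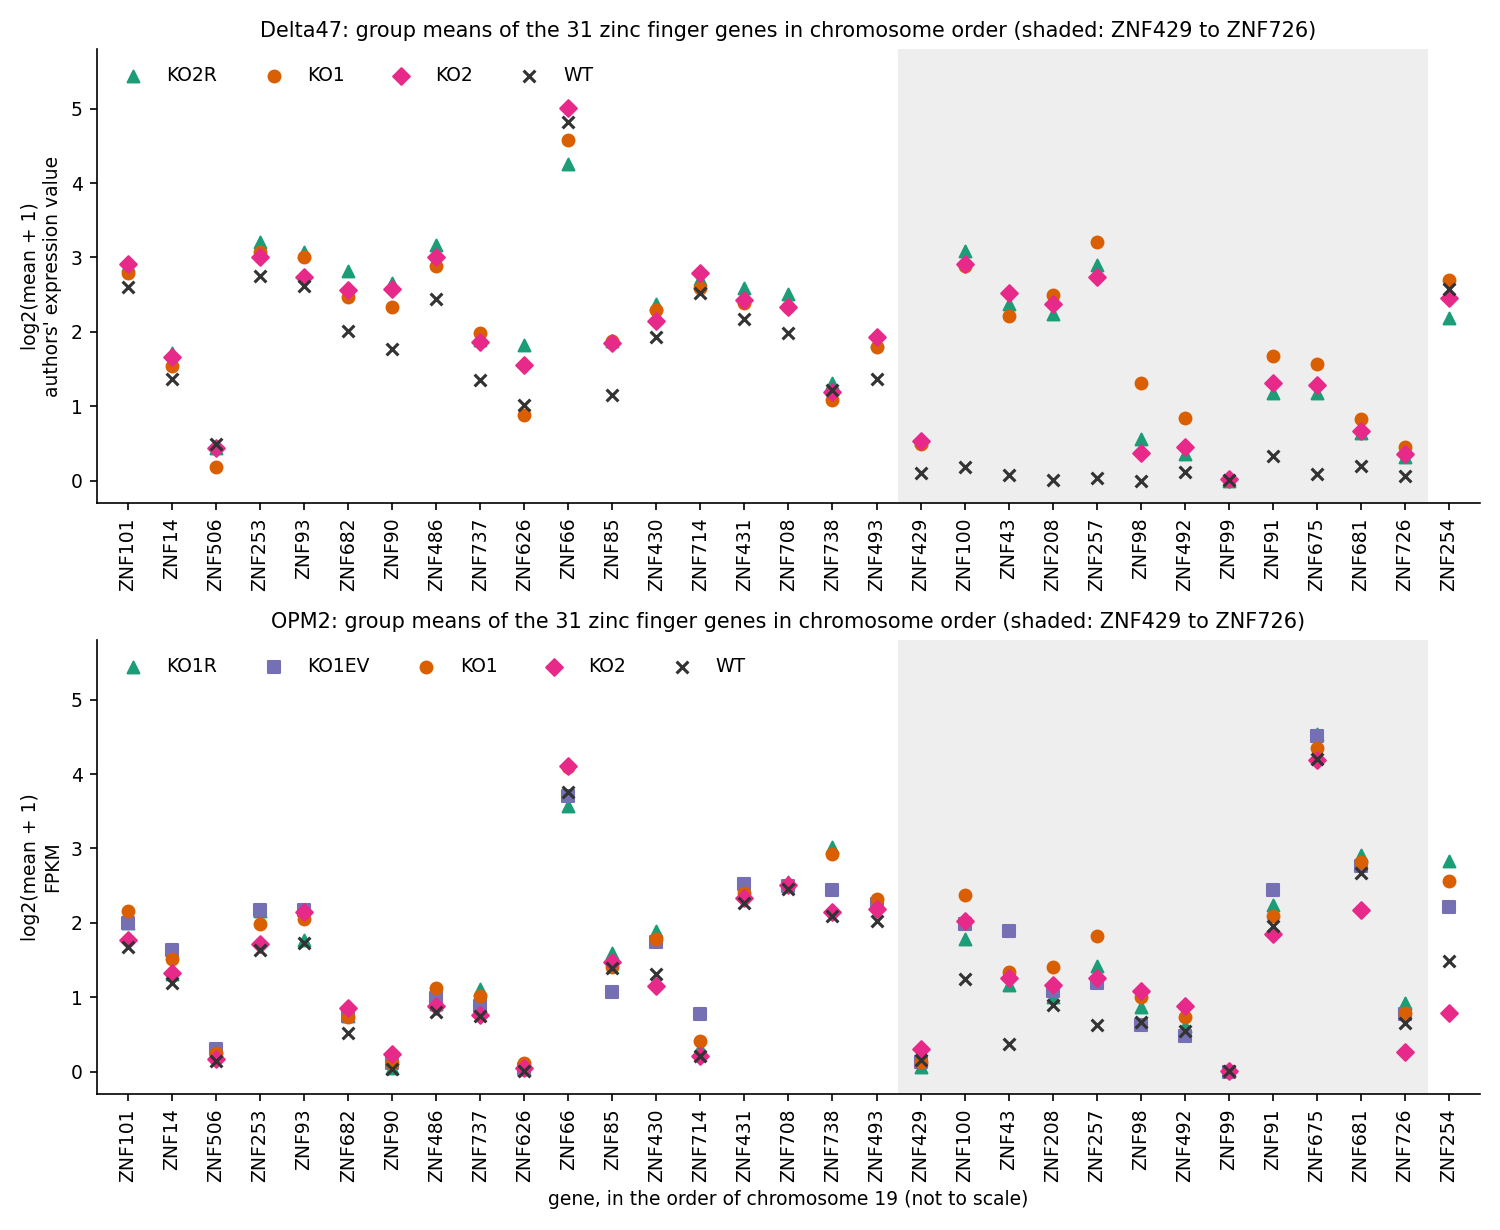
Group means of the 31 zinc finger genes in the order of chromosome 19, as log2(mean + 1), in Delta47 (top, the authors' expression value) and OPM2 (bottom, FPKM). Within the shaded run from ZNF429 to ZNF726 the Delta47 WT means are all at or below 0.253, while ZNF100, ZNF43, ZNF208 and ZNF257 are between 3.62 and 8.28 in KO1; in OPM2 WT the same run holds ZNF675 at 17.4 FPKM.

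Further along the stretch the levels were lower and the clones differed. ZNF98 had values of 1.29, 1.71 and 1.48 in Delta47 KO1 and 0.20, 0.27 and 0.40 in KO2, and was listed at 0 in all 3 WT libraries. The KO1 libraries all lay above the KO2 libraries. ZNF91, known to repress SVA retrotransposons in humans, averaged 2.21 ± 0.34 in KO1 and 1.48 ± 0.19 in KO2, against 0.253 ± 0.025 in WT (SD, n = 3 each). ZNF675, also described as an inhibitor of TRAF6 signalling, averaged 1.96 ± 0.24 in KO1 and 1.44 ± 0.35 in KO2, against 0.0667 ± 0.0289 in WT. ZNF492 averaged 0.793 in KO1 and 0.367 in KO2, against 0.0833 in WT, and ZNF681 averaged 0.77 in KO1 and 0.58 in KO2, against 0.147 in WT. ZNF429, ZNF726 and ZNF99 stayed under the limit of 0.5 in every Delta47 group, and ZNF99 was at most 0.02 in any library.

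Zinc finger genes of the stretch that are not in the set of 31 had the same direction. ZNF676, ZNF729, ZNF723, ZNF728, ZNF730 and ZNF724 had means that summed to 1.96 in KO2R, 3.88 in KO1 and 2.27 in KO2, against 0.107 in WT. RPSA2, a gene of ribosomal protein origin that lies within the stretch and was picked out after its values were seen, had means of 20.4 in KO2R, 16.6 in KO1 and 14.0 in KO2, against 14.6 in WT. Its close copy RPSA could have contributed reads to it. The first member past the end of the stretch, ZNF254, averaged 5.47 ± 0.62 in KO1 and 4.46 ± 0.41 in KO2, against 4.94 ± 0.15 in WT, and its groups overlapped. On the other side ZNF493 averaged 2.46 in KO1 and 2.80 in KO2, against 1.58 in WT.

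In OPM2 WT cells the stretch was not near 0 as a whole, although ZNF429 and ZNF99 averaged 0.117 and 0.00667 FPKM there and ZNF43 averaged 0.293 FPKM. The means of the 12 members of the stretch summed to 41.3 FPKM in KO1R, 41.9 FPKM in KO1EV, 41.2 FPKM in KO1 and 32.9 FPKM in KO2, against 30.5 FPKM in WT. ZNF675 made up most of this, with 22.3 FPKM in KO1R, 21.9 FPKM in KO1EV, 19.5 FPKM in KO1 and 17.3 FPKM in KO2, against 17.4 FPKM in WT. The tables of the lines were normalised separately, so the levels are set side by side and were not tested across lines.

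The promoters of the leading genes of the stretch are shown with that of ZNF254, the neighbour that was expressed in Delta47 WT cells, so that the sequence on both sides of this difference can be read. They cover 250 bases before to 50 bases after the annotated start of each gene, from RefSeq on GRCh38.p14, and 26 of the 31 members had an entry. ZNF100 is at chr19:21767530-21767829 on the minus strand, ZNF43 at chr19:21836133-21836432 on the minus strand and ZNF208 at chr19:22010894-22011193 on the minus strand. ZNF257 is at chr19:22052234-22052533 on the plus strand and ZNF254 at chr19:24086937-24087236 on the plus strand. Capitals mark the 3 stretches of 10 bases that all 5 share.
ZNF100: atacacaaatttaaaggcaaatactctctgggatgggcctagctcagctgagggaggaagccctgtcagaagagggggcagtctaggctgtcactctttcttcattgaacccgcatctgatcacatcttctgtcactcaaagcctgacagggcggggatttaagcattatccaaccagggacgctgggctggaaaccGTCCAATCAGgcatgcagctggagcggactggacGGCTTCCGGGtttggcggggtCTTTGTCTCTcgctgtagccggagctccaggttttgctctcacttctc
ZNF43: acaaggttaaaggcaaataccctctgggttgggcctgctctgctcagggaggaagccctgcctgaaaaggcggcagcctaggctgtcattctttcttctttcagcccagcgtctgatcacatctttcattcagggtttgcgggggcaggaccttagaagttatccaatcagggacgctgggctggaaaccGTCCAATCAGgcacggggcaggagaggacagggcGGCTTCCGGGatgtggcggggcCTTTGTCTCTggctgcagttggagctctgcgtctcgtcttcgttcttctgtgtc
ZNF208: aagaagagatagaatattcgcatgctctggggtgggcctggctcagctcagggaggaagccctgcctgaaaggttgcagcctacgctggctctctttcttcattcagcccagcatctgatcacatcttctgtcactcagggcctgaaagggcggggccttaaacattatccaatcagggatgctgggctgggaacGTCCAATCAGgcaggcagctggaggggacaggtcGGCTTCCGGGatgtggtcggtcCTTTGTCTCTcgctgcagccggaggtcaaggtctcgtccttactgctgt
ZNF257: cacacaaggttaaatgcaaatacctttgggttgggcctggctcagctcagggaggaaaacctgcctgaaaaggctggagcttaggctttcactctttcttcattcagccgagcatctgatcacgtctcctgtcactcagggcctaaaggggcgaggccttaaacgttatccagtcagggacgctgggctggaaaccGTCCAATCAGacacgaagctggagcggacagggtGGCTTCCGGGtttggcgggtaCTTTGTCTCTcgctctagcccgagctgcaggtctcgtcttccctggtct
ZNF254: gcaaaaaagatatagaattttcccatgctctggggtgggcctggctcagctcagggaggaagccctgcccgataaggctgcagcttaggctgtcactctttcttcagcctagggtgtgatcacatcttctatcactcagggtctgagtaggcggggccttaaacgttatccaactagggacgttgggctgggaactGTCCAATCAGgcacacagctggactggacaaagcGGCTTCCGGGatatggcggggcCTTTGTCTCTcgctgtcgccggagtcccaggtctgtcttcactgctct

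The 5 promoters were 75.2% to 82.6% identical in pairs, with a median of 78.8% over 10 pairs. Over all 325 pairs of members with an entry the median was 76.0%, with a range of 44.0% to 91.0%. The shared stretch GTCCAATCAG, which contains the CCAAT box, began 60 to 53 bases before the start in the printed promoters and was found in 21 of 26 members, against 0.407% of 27305 promoters searched on both strands. GGCTTCCGGG was found in 17 of 26 members, against 0.469% of all promoters, and CTTTGTCTCT in 18 of 26, against 0.308%. CCAAT on either strand was found in 26 of 26 members, against 35.7% of all promoters. The forkhead core TAAACA was found in 2 of 26 members, ZNF208 and ZNF429, against 12.4% of all promoters, and its longer form GTAAACA in 0 of 26, against 3.41%. The cell cycle element TTTGAA or TTCGAA was found in 1 of 26, ZNF737, against 16.6%. These matches are a description of letters in these windows. The shared stretches were defined as those that all 5 printed promoters hold.

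Outside the stretch most Delta47 members had moderately higher means in the knockout clones. Of 25 members tested inside and outside it, 17 were called higher and 1 lower in KO1 against WT, where 28.9% and 23.7% of all 11001 genes tested were called higher and lower. In KO2 against WT 21 of 25 were called higher and 0 lower, where 28.4% and 15.2% of all genes were called. The median log2 difference of the members was 0.43 in KO1 and 0.53 in KO2, beside 0.02 and 0.05 over all genes tested. These contrasts chose the genes, and nothing is read from the counts. The members tested inside the stretch were at most 0.28 in any WT library, so they passed the filter on low values only through edited groups. With the trend along transcript length removed, 2274 genes were called higher and 2362 lower in KO2 against WT, compared with 3122 and 1669 in the fit reported. In KO1 against WT 2588 were then called higher and 2680 lower, compared with 3177 and 2612.

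ZNF90 averaged 4.05 in Delta47 KO1 and 4.95 in KO2, against 2.41 in WT. ZNF682 averaged 4.53 in KO1 and 4.90 in KO2, against 3.01 in WT. ZNF486 averaged 6.42 in KO1 and 7.003 in KO2, against 4.43 in WT. In all 3 genes each knockout library lay above each WT library. ZNF85 averaged 2.67 in KO1 and 2.61 in KO2, against 1.23 in WT. ZNF737 averaged 2.96 in KO1 and 2.63 in KO2, against 1.55 in WT. ZNF253 averaged 7.38 in KO1 and 7.04 in KO2, against 5.70 in WT. These 3 also had no overlap between knockout and WT libraries. ZNF708 averaged 4.03 in KO1 and 4.05 in KO2, against 2.96 in WT, and ZNF430 averaged 3.89 in KO1 and 3.42 in KO2, against 2.82 in WT. ZNF431 averaged 4.26 in KO1 and 4.40 in KO2, against 3.53 in WT.

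Some Delta47 members differed little from WT or differed in 1 clone. ZNF101 averaged 5.91 in KO1 and 6.50 in KO2, against 5.09 in WT. ZNF14 averaged 1.91 in KO1 and 2.18 in KO2, against 1.59 in WT. ZNF714 averaged 5.03 in KO1 and 5.90 in KO2, against 4.77 in WT. In these 3 genes the KO1 libraries overlapped the WT libraries and the KO2 libraries did not. ZNF626 averaged 0.84 in KO1 and 1.94 in KO2, against 1.02 in WT. ZNF93, which represses L1 retrotransposons in humans, averaged 7.01 in KO1 and 5.64 in KO2, against 5.12 in WT. ZNF738 averaged 1.11 in KO1 and 1.29 in KO2, against 1.33 in WT. ZNF66, the member with the highest values, had 22.27, 22.64 and 23.75 in KO1 and 32.88, 30.41 and 30.28 in KO2, against 28.67, 25.98 and 27.03 in WT, so KO1 lay below and KO2 above WT. Over the 95 Delta47 group means of 0.5 or more the SD was 7.80% of the mean at the median and at most 38.2%, for ZNF626 in KO1.

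In OPM2 the 3 genes that chose the set were lower in WT than in both clones without being near 0 in every case. ZNF100 had 4.57, 3.86 and 4.13 FPKM in KO1 and 3.18, 2.93 and 3.14 FPKM in KO2, against 1.55, 1.30 and 1.24 FPKM in WT. ZNF43 had 1.79, 1.41 and 1.36 FPKM in KO1 and 1.45, 1.73 and 0.98 FPKM in KO2, against 0.37, 0.23 and 0.28 FPKM in WT. ZNF257 had 2.70, 2.44 and 2.50 FPKM in KO1 and 1.27, 1.31 and 1.62 FPKM in KO2, against 0.64, 0.44 and 0.57 FPKM in WT. All knockout libraries lay above all WT libraries, and for ZNF100 and ZNF257 all KO1 libraries lay above all KO2 libraries. In linear means KO1 was 3.07, 5.18 and 4.63 times WT for ZNF100, ZNF43 and ZNF257, and KO2 was 2.26, 4.73 and 2.55 times WT. On the scale of log2(FPKM + 1) the differences were 1.13 ± 0.07, 0.96 ± 0.12 and 1.20 ± 0.08 in KO1 and 0.79 ± 0.07, 0.87 ± 0.12 and 0.63 ± 0.08 in KO2 (± SE).

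**Figure D2:**
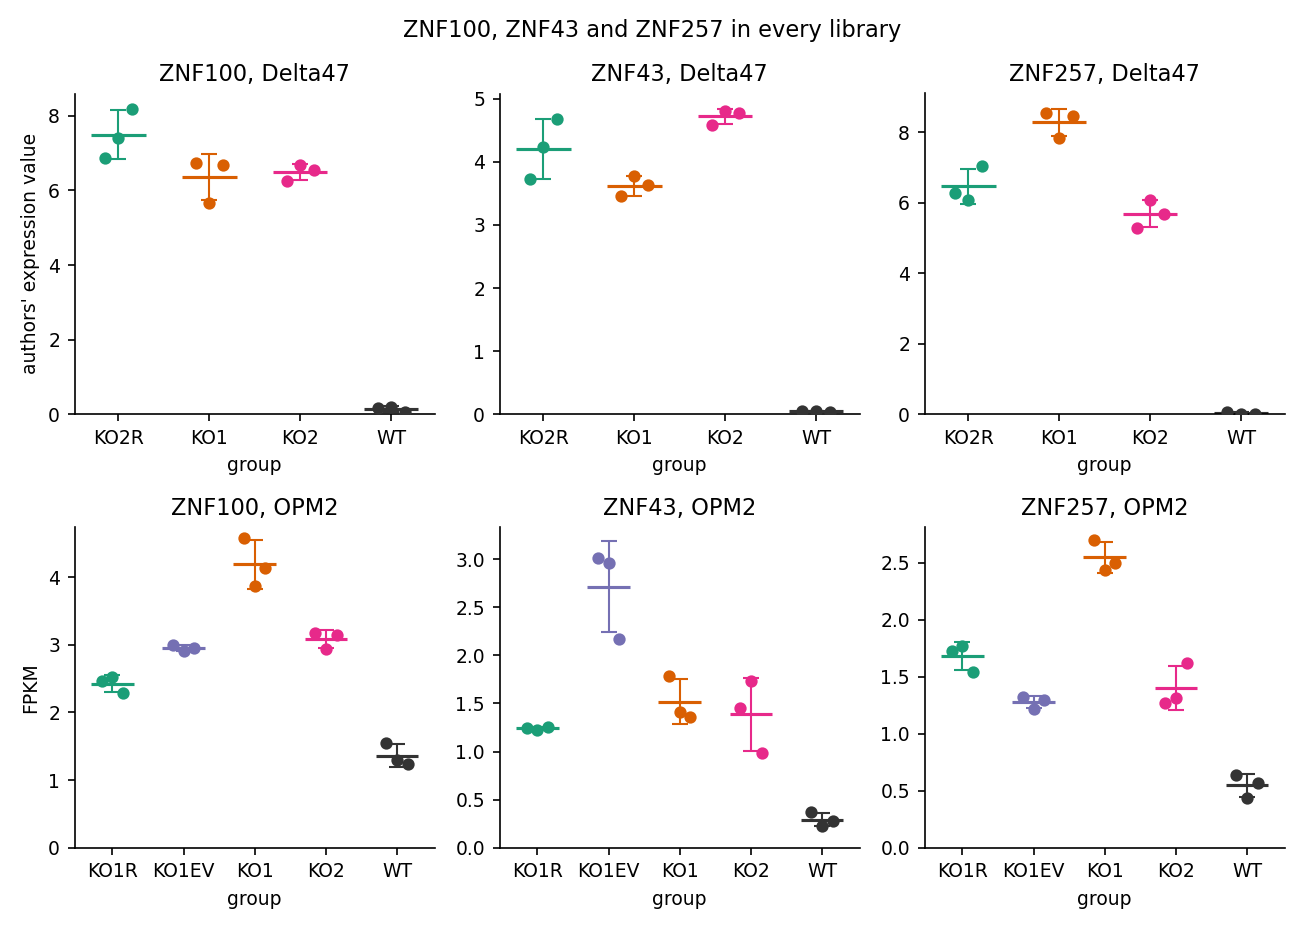
Values of ZNF100, ZNF43 and ZNF257 in each library of Delta47 (top row, the authors' expression value) and OPM2 (bottom row, FPKM), with points for libraries, lines for the means and bars for the SD (n = 3). Delta47 WT is at or below 0.20 for all 3 genes and KO2R averages between 4.21 and 7.49, while in OPM2 KO1R lies below KO1EV for ZNF43, with a mean of 1.24 FPKM in KO1R against 2.71 FPKM in KO1EV.

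Of 22 members tested in OPM2, 14 were called higher and 0 lower in KO1 against WT, where 14.5% and 6.72% of 10309 genes tested were called higher and lower. In KO2 against WT 5 were called higher and 2 lower, where 6.54% and 7.82% of all genes were called. The median log2 difference of the members was 0.33 in KO1 and 0.07 in KO2, beside 0.07 and 0.02 over all genes. Nothing is read from these counts, for the reason given above. The KO1 count depended on scaling: with quantile scaling 8 members were called higher, and the calls over all genes were 1080 higher and 1143 lower, compared with 1494 and 693 as deposited.

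The clones of OPM2 were least alike for ZNF254. It had 5.18, 5.15 and 4.34 FPKM in KO1 and 0.70, 0.53 and 0.97 FPKM in KO2, against 1.89, 1.81 and 1.72 FPKM in WT. KO1 lay above WT and KO2 below it without overlap, with log2 differences of 1.07 ± 0.10 and −0.70 ± 0.10. ZNF681 averaged 6.07 ± 0.21 FPKM in KO1 and 3.50 ± 0.10 FPKM in KO2, against 5.35 ± 0.51 FPKM in WT. ZNF738 had 6.75, 6.91 and 6.04 FPKM in KO1 and 3.63, 3.45 and 3.17 FPKM in KO2, against 3.21, 3.10 and 3.44 FPKM in WT, so KO1 stood above overlapping KO2 and WT libraries. ZNF98 had 0.99, 1.01 and 1.02 FPKM in KO1 and 1.09, 1.11 and 1.18 FPKM in KO2, against 0.66, 0.51 and 0.61 FPKM in WT. It lay above WT in both clones, as in Delta47. ZNF726 averaged 0.73 FPKM in KO1 and 0.197 FPKM in KO2, against 0.577 FPKM in WT.

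**Figure D3:**
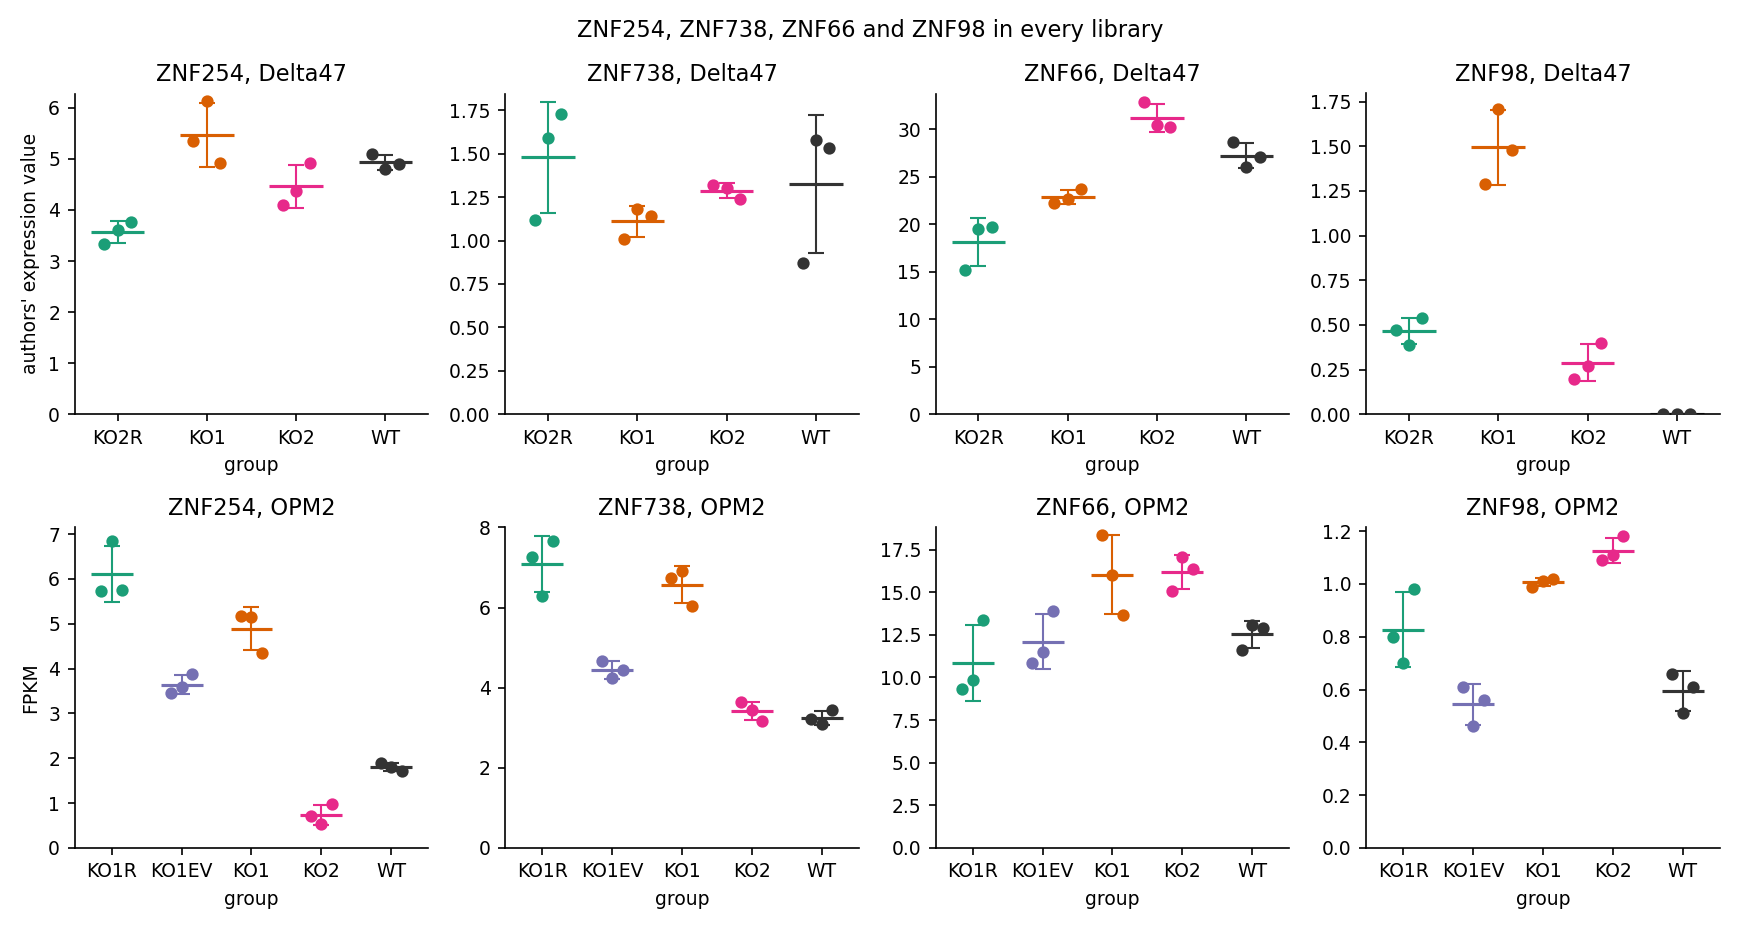
Values of ZNF254, ZNF738, ZNF66 and ZNF98 in each library of Delta47 (top row, the authors' expression value) and OPM2 (bottom row, FPKM), with points for libraries, lines for the means and bars for the SD (n = 3). In OPM2 ZNF254 averages 4.89 FPKM in KO1 and 0.733 FPKM in KO2 against 1.81 FPKM in WT, and in Delta47 ZNF98 is listed at 0 in WT.

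The remaining OPM2 members are given by their group means. ZNF101 averaged 3.47 FPKM in KO1 and 2.40 FPKM in KO2, against 2.19 FPKM in WT. ZNF430 averaged 2.44 FPKM in KO1 and 1.21 FPKM in KO2, against 1.49 FPKM in WT. ZNF253 averaged 2.94 FPKM in KO1 and 2.28 FPKM in KO2, against 2.09 FPKM in WT. In these 3 genes KO1 lay above WT without overlap, and the KO2 libraries of ZNF101 and ZNF253 overlapped WT while those of ZNF430 lay below it. ZNF14 averaged 1.87 FPKM in KO1 and 1.497 FPKM in KO2, against 1.28 FPKM in WT. ZNF737 averaged 1.03 FPKM in KO1 and 0.69 FPKM in KO2, against 0.683 FPKM in WT. ZNF493 averaged 4.01 FPKM in KO1 and 3.55 FPKM in KO2, against 3.05 FPKM in WT. ZNF93 and ZNF66 had higher means in both clones, with 3.14 FPKM in KO1 and 3.44 FPKM in KO2 against 2.32 FPKM in WT for ZNF93, and 16.0 FPKM in KO1 and 16.2 FPKM in KO2 against 12.5 FPKM in WT for ZNF66. ZNF208 averaged 1.66 FPKM in KO1 and 1.24 FPKM in KO2, against 0.867 FPKM in WT. ZNF486 averaged 1.17 FPKM in KO1 and 0.833 FPKM in KO2, against 0.743 FPKM in WT. For both of these KO1 lay above WT and the KO2 libraries overlapped WT.

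ZNF91 averaged 3.24 FPKM in KO1 and 2.61 FPKM in KO2, against 2.897 FPKM in WT. ZNF431 averaged 4.27 FPKM in KO1 and 4.06 FPKM in KO2, against 3.80 FPKM in WT. ZNF708 averaged 4.70 FPKM in KO1 and 4.71 FPKM in KO2, against 4.46 FPKM in WT. The KO1 and WT libraries overlapped for ZNF431 and ZNF708. ZNF85 averaged 1.66 FPKM in KO1 and 1.79 FPKM in KO2, against 1.63 FPKM in WT. ZNF492, ZNF682, ZNF714 and ZNF726 passed 0.5 in a group but were too low to be tested. ZNF682 averaged 0.657 FPKM in KO1 and 0.81 FPKM in KO2, against 0.43 FPKM in WT. ZNF492 averaged 0.667 FPKM in KO1 and 0.843 FPKM in KO2, against 0.46 FPKM in WT. ZNF714 reached 0.707 FPKM in KO1EV, against 0.33 FPKM in KO1. ZNF429, ZNF506, ZNF626, ZNF90 and ZNF99 stayed under 0.5 FPKM in every group. The SD was 9.18% of the mean at the median of 121 OPM2 group means of 0.5 or more, and at most 33.5%, for ZNF85 in KO1EV.

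Among the 21 members tested in both lines, ZNF100, ZNF257, ZNF43 and ZNF98 were called higher than WT in all 4 clones. Over all 9530 genes tested in both lines, 37 were called higher in all 4, or 0.388%. ZNF98 passed the filter on low values in Delta47 through KO1 alone, so its calls there rest on the group where it is high. ZNF100, ZNF257 and ZNF43 were at most 0.20 in Delta47 WT and passed there only through edited groups. In OPM2 ZNF43, ZNF257 and ZNF98 were at most 0.37, 0.64 and 0.66 FPKM in WT and passed in the same way. The clones of a line share their WT libraries and the choice of the genes used all 4 contrasts, so this is a description.

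Putting FOXM1c back is a comparison that the choice of the genes did not use, if it is made between KO1R and KO1EV of OPM2. The members moved in both directions: of 22 tested, 3 were called higher and 2 lower in KO1R, where 3.10% and 5.12% of all genes were called higher and lower. The median log2 difference of the members was 0.02, beside −0.06 over all genes. ZNF738 had 7.27, 6.30 and 7.66 FPKM in KO1R, against 4.66, 4.23 and 4.43 FPKM in KO1EV (log2 difference 0.57 ± 0.08, limma adjusted p = 0.000495). ZNF254 had 5.74, 6.84 and 5.75 FPKM in KO1R, against 3.46, 3.58 and 3.88 FPKM in KO1EV (0.61 ± 0.10, adjusted p = 0.00148). ZNF43 had 1.24, 1.22 and 1.26 FPKM in KO1R, against 3.01, 2.96 and 2.17 FPKM in KO1EV (−0.72 ± 0.12, adjusted p = 0.00214). The groups did not overlap for these 3 genes, and ZNF43 was the one of the 3 that lay nearer its WT level in KO1R than in KO1EV. Set against untransduced KO1, the KO1R differences were smaller. ZNF43 averaged 1.24 FPKM in KO1R, against 1.52 FPKM in KO1 (−0.17 ± 0.12, without a p because its KO1 values chose the set). ZNF738 differed by 0.09 ± 0.08 and ZNF254 by 0.27 ± 0.10 (limma adjusted p = 0.42 and 0.0629).

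The other calls of this comparison rested on smaller margins. ZNF93 had 2.46, 2.07 and 2.69 FPKM in KO1R, against 3.54, 3.66 and 3.30 FPKM in KO1EV (−0.40 ± 0.10, adjusted p = 0.0259), and was not called under quantile scaling, with the length trend removed or without any 1 of KO1EV replicates 1 and 2 and KO1R replicates 1 and 2. ZNF85 had 2.06, 2.31 and 1.70 FPKM in KO1R, against 1.5, 0.99 and 0.79 FPKM in KO1EV (0.54 ± 0.15, adjusted p = 0.0397), and was not called without the filter on low values or without any 1 of KO1EV replicates 2 and 3 and KO1R replicates 1 and 2. ZNF100 had 2.47, 2.52 and 2.29 FPKM in KO1R, against 3.0, 2.9 and 2.95 FPKM in KO1EV, and its difference of −0.21, with a 95% interval of −0.36 to −0.05, did not pass the test (adjusted p = 0.0941). ZNF257 had 1.73, 1.77 and 1.54 FPKM in KO1R, against 1.32, 1.22 and 1.30 FPKM in KO1EV (0.23, interval 0.07 to 0.40, adjusted p = 0.0811). It was called higher without the 2 libraries that stood apart (adjusted p = 0.0373) and with the length trend removed (adjusted p = 0.0244). Under quantile scaling the calls over all genes were 426 higher and 345 lower, compared with 320 and 528, and 5 members were called higher and 1 lower.

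**Figure D4:**
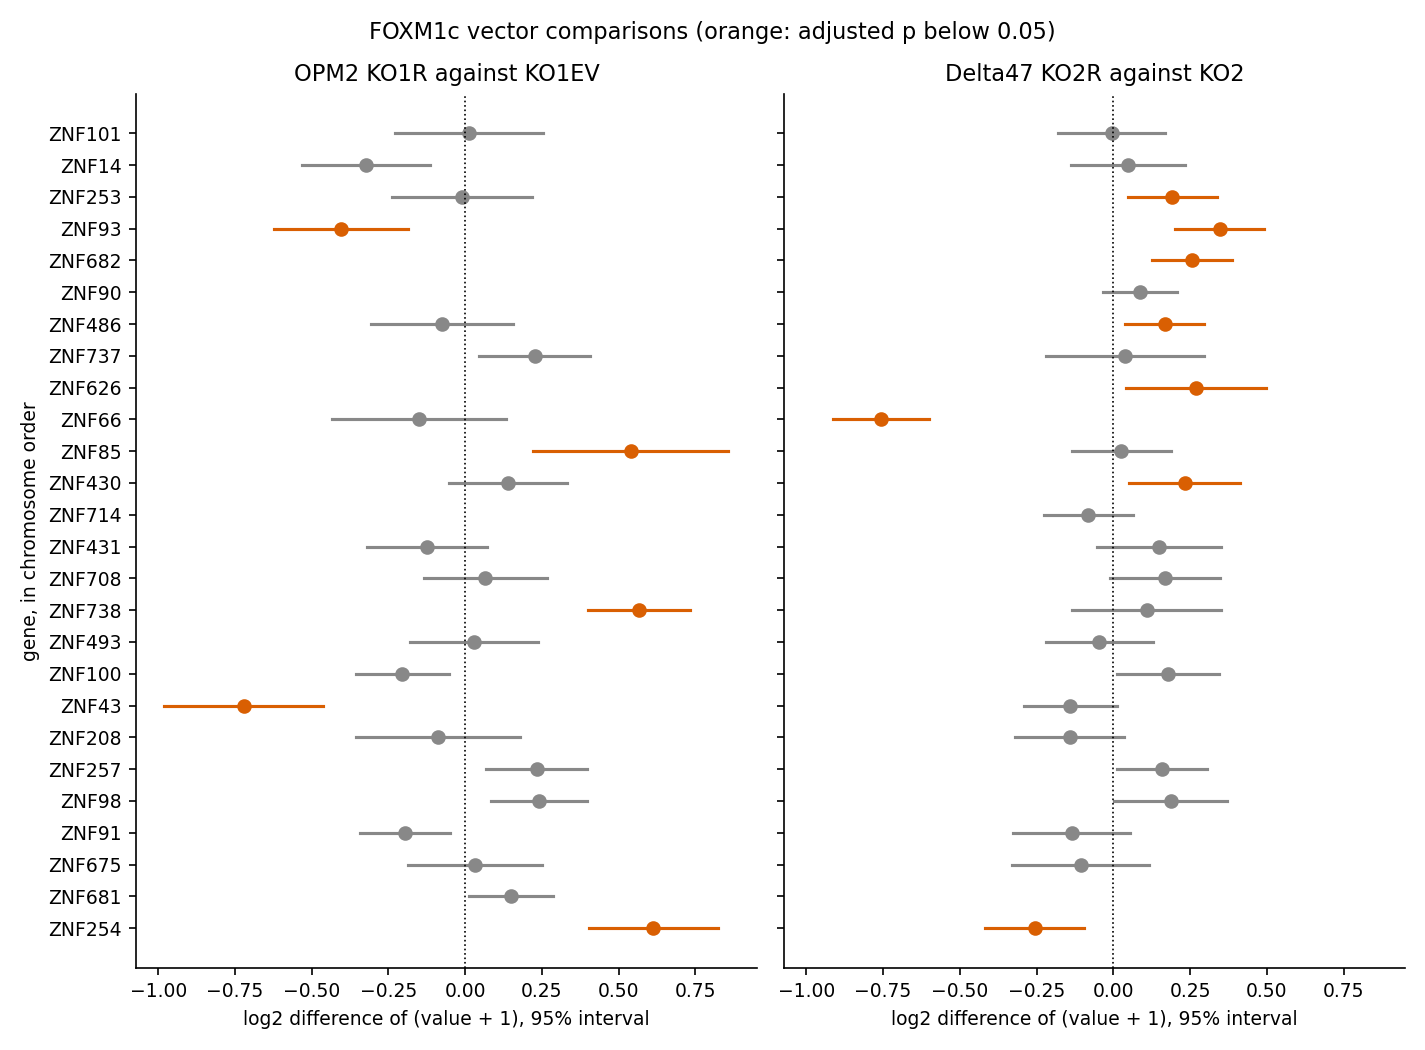
Log2 differences of value + 1 with 95% intervals for the members tested, in OPM2 KO1R against KO1EV (left) and Delta47 KO2R against KO2 (right), in chromosome order. Orange marks an adjusted p below 0.05; ZNF254 lies at 0.61 on the left and at −0.26 on the right, and ZNF43 at −0.72 and −0.14.

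Some of the same genes also differed between KO1EV and the untransduced clone, whose libraries had been used in choosing the set. In KO1EV against KO1, 2 of 22 members were called higher and 4 lower, where 1.78% and 3.17% of all genes were called. The median log2 difference was −0.10, beside −0.02 over all genes. These counts include ZNF100, ZNF257 and ZNF43, whose high KO1 values chose the set, so for these 3 genes no p is given against KO1 and the differences are a description. ZNF257 averaged 1.28 FPKM in KO1EV, against 2.55 FPKM in KO1 (−0.64 ± 0.08), and ZNF100 averaged 2.95 FPKM in KO1EV, against 4.19 FPKM in KO1 (−0.39 ± 0.07). ZNF43 averaged 2.71 FPKM in KO1EV, against 1.52 FPKM in KO1 (0.56 ± 0.12). Of the members that the choice did not name, ZNF738 fell by 0.47 ± 0.08 on the log2 scale (4.44 FPKM in KO1EV against 6.57 FPKM in KO1, limma adjusted p = 0.00257). ZNF91 rose by 0.35 ± 0.07 (4.41 FPKM in KO1EV against 3.24 FPKM in KO1, limma adjusted p = 0.00801). ZNF98 fell by 0.38 ± 0.07 (0.543 FPKM in KO1EV against 1.01 FPKM in KO1). Only libraries of KO1 and KO2 reached 1 FPKM for ZNF98, so it passed the filter on low values where it is high. It is counted among the calls, but its difference is a description and no p is given.

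Set against untransduced KO1, KO1R had 0 of 22 members called higher and 4 lower, where 6.26% and 15.4% of all genes were called, so the lower share, with a median difference of −0.02 beside −0.08 over all genes, was close to the background. The count includes ZNF100 and ZNF257, whose KO1 values chose the set and which again get no p. ZNF100 averaged 2.43 FPKM in KO1R, against 4.19 FPKM in KO1 (−0.60 ± 0.07), and ZNF257 averaged 1.68 FPKM in KO1R, against 2.55 FPKM in KO1 (−0.40 ± 0.08). Both stayed above every WT library of OPM2 in all KO1R libraries. ZNF66 had 9.32, 9.86 and 13.39 FPKM in KO1R, against 18.34, 16.04 and 13.69 FPKM in KO1 (−0.53 ± 0.13, limma adjusted p = 0.0123), and lost its call without KO1 replicate 1 or KO1R replicate 1 or 2. ZNF208 had 0.83, 0.98 and 1.20 FPKM in KO1R, against 2.02, 1.52 and 1.43 FPKM in KO1 (−0.40 ± 0.12, adjusted p = 0.0339), and lost its call under both scalings and without any 1 of KO1 replicates 1 and 2 and KO1R replicates 1 and 2. Under quantile scaling 6 members were called higher and 2 lower, the median turned to 0.13, the ZNF257 difference was −0.23, and the calls over all genes were 929 higher and 1019 lower, compared with 645 and 1591.

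In Delta47 the stretch that was near 0 in WT stayed above WT, by the sum of its members, with FOXM1c put back. The KO2 values of ZNF100, ZNF257 and ZNF43 were used in choosing the set, so these 3 get intervals and no p. ZNF100 had values of 6.88, 7.41 and 8.19 in KO2R, against 6.26, 6.68 and 6.54 in KO2 (log2 difference 0.18, 95% interval 0.01 to 0.34). ZNF257 had 6.28, 6.08 and 7.04 in KO2R, against 5.30, 6.07 and 5.69 in KO2 (0.16, interval 0.01 to 0.30). ZNF43 had 3.72, 4.23 and 4.67 in KO2R, against 4.58, 4.80 and 4.78 in KO2 (−0.14, interval −0.29 to 0.01). ZNF208 had 2.99, 4.06 and 4.11 in KO2R, against 4.19, 4.04 and 4.30 in KO2 (−0.14, interval −0.32 to 0.04, limma adjusted p = 0.151). Every KO2R library of each of the 4 genes lay far above its highest WT library. The differences of ZNF100 and ZNF257 were 0.28 and 0.27 under quantile scaling and 0.38 and 0.28 with the length trend removed, and ZNF43 turned to 0.053 with that trend removed. ZNF98 averaged 0.467 in KO2R, against 0.29 in KO2, ZNF91 averaged 1.26 in KO2R, against 1.48 in KO2, and ZNF675 averaged 1.26 in KO2R, against 1.44 in KO2. Their libraries overlapped between the groups.

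Of 25 members tested in KO2R against KO2, whose KO2 libraries had been used in choosing the set, 6 were called higher and 2 lower, where 25.2% and 36.8% of all genes were called, and the median log2 difference was 0.09, beside −0.05 over all genes. All 8 lay outside the stretch. ZNF66 had values of 15.22, 19.53 and 19.67 in KO2R, against 32.88, 30.41 and 30.28 in KO2 (−0.76 ± 0.07, limma adjusted p = 2.46e-07). ZNF254 had 3.34, 3.60 and 3.76 in KO2R, against 4.10, 4.37 and 4.91 in KO2 (−0.26 ± 0.08, adjusted p = 0.00767). ZNF66 in KO2R lay below all KO2 and all WT libraries, and the ZNF254 call was lost under both scalings. ZNF93 had 7.21, 6.92 and 8.23 in KO2R, against 5.27, 6.08 and 5.58 in KO2 (0.35 ± 0.07, adjusted p = 0.000357). ZNF682 had 5.97, 5.94 and 6.22 in KO2R, against 4.52, 5.28 and 4.90 in KO2 (0.26 ± 0.06, adjusted p = 0.00165). Neither gene had overlapping groups.

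ZNF253 had 7.91, 7.53 and 9.22 in KO2R, against 6.96, 6.95 and 7.22 in KO2 (0.19 ± 0.07, limma adjusted p = 0.0222), and ZNF486 had 7.73, 7.54 and 8.74 in KO2R, against 6.92, 7.11 and 6.98 in KO2 (0.17 ± 0.06, adjusted p = 0.0249). The ZNF253 call was lost without KO2R replicate 3, KO2 replicate 1 or KO2 replicate 2, and the ZNF486 call without KO2R replicate 3, KO2 replicate 1 or KO2 replicate 3. ZNF430 and ZNF626 were also called higher, by 0.23 ± 0.08 and 0.27 ± 0.11 (adjusted p = 0.0256 and 0.0395). Without KO2R replicate 3, which held the highest value of ZNF253, ZNF486, ZNF93 and ZNF682, 2 members were called higher. Calls over all genes were not counted without that library, so a shift of all genes cannot be told apart from one of the members. In this comparison the log2 difference fell with transcript length across 10862 genes (Spearman's rho −0.505, a description across genes, which are not independent replicates), and its part in the members' differences was not tested. The rho was −0.393 in Delta47 KO1 against WT, −0.321 in OPM2 KO1EV against KO1 and −0.253 in KO1R against KO1. It lay between −0.146 and 0.028 in the remaining comparisons. With the length trend removed, or under quantile scaling, 11 members were called higher and 1 lower in KO2R against KO2. The calls over all genes were then 3150 higher and 3218 lower without the trend and 3341 and 3418 under quantile scaling, compared with 2773 and 4043 as deposited.

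Zinc finger genes of other chromosome 19 clusters were counted in the same way, beside the shares of all genes called higher in each comparison. In Delta47 KO1 against WT, where 28.9% of all genes were called higher, 10 of 34 genes of the 19p13.2 list, 3 of 15 of 19q13.12, 2 of 8 of 19q13.31 and 5 of 29 of 19q13.41 were, beside 17 of 25 members. In Delta47 KO2 against WT, 10 of 34 genes of the 19p13.2 list, 2 of 15 of 19q13.12, 3 of 8 of 19q13.31 and 10 of 29 of 19q13.41 were called higher, beside 21 of 25 members and 28.4% of all genes. Their median log2 differences were 0.12, 0.11, 0.11 and 0.11, beside 0.53 for the members. In OPM2 KO1 against WT, 7 of 25, 4 of 13, 0 of 9 and 9 of 20 genes of these lists were called higher, beside 14 of 22 members and 14.5% of all genes. In OPM2 KO2 against WT, 2 of 25, 2 of 13, 0 of 9 and 7 of 20 genes of these lists were called higher, with medians of 0.03, 0.07, 0.07 and 0.31, beside 5 of 22 and 0.07 for the members and 6.54% of all genes called. In Delta47 KO2R against KO2, 18 of 34, 4 of 15, 3 of 8 and 5 of 29 genes of the 4 lists were called higher, beside 6 of 25 members and 25.2% of all genes. The genes near the cluster that are not zinc finger genes had a median of 0.09 in Delta47 KO2 and of 0.07 in OPM2 KO2, with 8 of 18 and 0 of 17 called higher. Because the members were chosen on these contrasts and the other lists were not, the counts are not compared by a test.

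A list of KRAB corepressors and of further genes of heterochromatin, chromatin remodelling and DNA methylation was measured in the same libraries. For short, all genes of the list are called corepressors here. In Delta47 KO1 against WT 2 of 22 were called higher and 13 lower, beside 28.9% and 23.7% of all genes. In KO2 against WT 4 were called higher and 7 lower, beside 28.4% and 15.2% of all genes. SETDB1, the histone H3 lysine methyltransferase of the TRIM28 complex, averaged 20.2 ± 0.4 in KO1 and 18.0 ± 0.9 in KO2, against 29.8 ± 0.9 in WT (SD, n = 3 each), with log2 differences of −0.54 ± 0.05 and −0.70 ± 0.05 (SE, limma adjusted p = 2.71e-07 and 1.14e-08). UHRF1, which links histone marks to DNA methylation, fell by 0.52 ± 0.05 in KO1 and by 0.33 ± 0.05 in KO2 (limma adjusted p = 1.18e-07 and 2.25e-05). CHD4, a chromatin remodeller of the NuRD complex, fell by 0.59 ± 0.04 in KO1 and by 0.24 ± 0.04 in KO2 (limma adjusted p = 6.48e-09 and 0.000185). DNMT3B, a de novo DNA methyltransferase, averaged 11.35 in KO1 and 12.72 in KO2, against 8.25 in WT. Its KO1 libraries lay at 10.98 to 11.73 and its WT libraries at 7.92 to 8.74. In KO2 it rose by 0.57 ± 0.06 (limma adjusted p = 3.94e-07). In KO2R against KO2 2 of 22 were called higher and 17 lower, beside 25.2% and 36.8% of all genes, and 15 were lower with the trend along transcript length removed. SETDB1 stayed low with FOXM1c, at 17.5 ± 1.1 in KO2R against 18.0 ± 0.9 in KO2 (−0.03, limma adjusted p = 0.578). TRIM28 itself averaged 127 ± 3 in KO1, 137 ± 4 in KO2 and 97.2 ± 3.8 in KO2R, against 149 ± 3 in WT (SD, n = 3 each).

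In OPM2 fewer corepressors were called against WT, as were fewer of all genes. In KO1 against WT 1 of 22 was called higher and 0 lower, beside 14.5% and 6.72% of all genes, and the median log2 difference was 0.19, compared with −0.14 in Delta47 KO1. In KO2 against WT limma called 0 either way, beside 6.54% and 7.82% of all genes, with a median of −0.03 in both OPM2 KO2 and Delta47 KO2. The gene called was CBX5, a heterochromatin protein, with 26.2 ± 1.7 FPKM in KO1 against 22.0 ± 0.4 FPKM in WT (0.24 ± 0.08, limma adjusted p = 0.0482), and it was not called under quantile scaling or with the length trend removed. SETDB1 averaged 26.1 ± 0.9 FPKM in KO1 and 28.9 ± 2.6 FPKM in KO2, against 24.9 ± 1.4 FPKM in WT, and did not pass the test in either clone (limma adjusted p = 0.492 and 0.0675). In KO2 it was called higher with the length trend removed (0.22, limma adjusted p = 0.0311). Whether the levels of the corepressors bear on those of the zinc finger genes was not tested.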

How the data were processed

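Poly-A RNA was sequenced as paired ends of 100 bases, per the labels' protocols, and 27 of 30 libraries were used. The submitters' processing notes name the genome build hg19; for the aligner and the counting tool the sources used here give nothing. The deposited OPM2 values are FPKM, per the file headers. The deposited Delta47 values carry no unit in the header and were treated as a normalised signal. The KO2R columns lack a clone number and were matched to the only Delta47 group with an R in its name. A further 3 Delta47 columns matched no single sample by name and were not used. This left the 3 Delta47 empty-vector libraries without columns.

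A gene was tested where 3 or more libraries of the line reached a value of 1. The test was two-sided, on log2(value + 1), by limma-trend (limma 3.58.1, R 4.3.3) with all groups of a line in 1 fit. Benjamini-Hochberg adjustment ran over all genes tested, and an adjusted p below 0.05 made a call. In OPM2 22 members passed this filter and in Delta47 25. Sparse genes gave relative read steps of −0.03 to 0.04 (log2) in OPM2 and −0.03 to 0.02 in Delta47. They give no depth. The labels do not say whether the 3 libraries of a group are separate cultures, so p-values measure the spread between these libraries, which may be technical.

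The fit was tested on data with known changes before use. The named genes are FOXM1, ZNF43, ZNF100 and ZNF257, up to 6 members called in each vector comparison by smallest p, group means of members at 0.5 or more, and up to 4 called genes of another list. ZNF208 and ZNF98 in Delta47 and ZNF254 and ZNF738 against WT were added to the genes given by library after their values were seen. The Delta47 means of TRIM28 were also added after they were seen. The members, lists and tests were chosen with earlier results of these data known. Alternatives were another pseudocount, no filter, quantile scaling, fits of the compared groups alone, the replicate number as a block, leaving out libraries and, added after seeing the data, removing the trend of each library along transcript length (GENCODE 29).

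Replicate numbers paired the libraries in OPM2 KO1 against WT only, where same-numbered deviations correlated at 0.41, 0.15 and 0.21; the labels do not say that a number marks a shared day or culture. Promoters were matched by symbol to RefSeq, and no analysis used coordinates of the deposited files.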

Additional observations from a re-analysis of the deposited data

Results flagged for a closer look

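Several members had differences of opposite sign under the same contrast, with every library of 1 group above or below every library of the other. These differences between contrasts were not tested, and no explanation was tested either. The share of all genes with such opposite differences was not counted, so nothing is read from the number of members listed.

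With the FOXM1c vector against the untransduced clone, 5 members differed in opposite directions in the lines. In OPM2 ZNF93, ZNF486 and ZNF254 were not called (limma adjusted p = 0.0623, 0.193 and 0.0629). The KO1 and KO2 values of ZNF100 and ZNF257 chose the set, so their differences are a description and no test outcome is used. ZNF93 differed by −0.28 (log2) in OPM2 KO1R against KO1 and by 0.35 in Delta47 KO2R against KO2. ZNF100 differed by −0.60 in OPM2 and by 0.18 in Delta47, and ZNF257 by −0.40 and 0.16. ZNF486 differed by −0.21 in OPM2 and by 0.17 in Delta47. ZNF254 had the other pair of signs, with 0.27 in OPM2 and −0.26 in Delta47.

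Between the OPM2 clones against WT, ZNF254 differed by 1.07 in KO1 and by −0.70 in KO2. ZNF681 differed by 0.16 in KO1 and by −0.49 in KO2, ZNF430 by 0.46 and −0.18, and ZNF91 by 0.12 and −0.11. Between the Delta47 clones against WT, ZNF66 differed by −0.24 in KO1 and by 0.19 in KO2.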

How the results depend on the processing

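The counts of members called changed with the scaling and with single libraries. Under quantile scaling KO1R against KO1EV had 5 higher and 1 lower, KO1R against KO1 had 6 higher and 2 lower, and OPM2 KO1 against WT had 8 higher. With the length trend removed KO1R against KO1EV again had 5 higher and 1 lower, KO1R against KO1 had 4 higher, and OPM2 KO1 against WT had 9 higher. In the same order, the calls over all genes were then 444 higher and 360 lower, 927 and 933, and 1138 and 1033. Delta47 KO2R against KO2 had 11 higher and 1 lower under each of these. With no filter, where members too low for the main fit were also tested, OPM2 KO2 against WT had 8 higher and Delta47 KO1 against WT had 2 lower. With only the compared groups fitted, KO1R against KO1 had 2 higher. Without the 2 OPM2 libraries that stood apart, KO1R against KO1EV had 5 higher, KO1EV against KO1 had 7 lower and KO1R against KO1 had 3 higher. ZNF43 in Delta47 KO2R against KO2 turned to 0.053 with the length trend removed. The cause of these shifts was not tested. Calls over all genes were counted only for the values as deposited, under quantile scaling and with the length trend removed. Under every other setting, including each library left out, shifts of the members and of all genes cannot be told apart.

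Leaving out 1 library at a time, KO1R against KO1EV had 1 to 2 members lower, KO1EV against KO1 had 1 to 2 higher and KO1R against KO1 had 2 to 5 lower. OPM2 KO1 against WT had 8 to 10 higher, Delta47 KO1 against WT had 1 to 2 lower and Delta47 KO2R against KO2 had 2 to 8 higher. The OPM2 KO1 against WT count was 8 without KO1 replicate 1 and 9 without KO1 replicate 2, WT replicate 1 or WT replicate 3, compared with 14. KO1R against KO1 had 2 lower without KO1 replicate 1, KO1R replicate 1 or KO1R replicate 2. Delta47 KO1 against WT had 2 lower without KO1 replicate 3, and Delta47 KO2R against KO2 had 2 higher without KO2R replicate 3. Calls over all genes were not counted with a library left out, so nothing is read from these shifts of the members. With the replicate block, OPM2 KO1 against WT had 15 members called higher and 0 lower, and no count of calls moved by over 1.5 times. Depth is unknown, so values near 0 in Delta47 WT cannot be turned into limits on reads.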
